A study of Mus musculus with 4 samples.

Results

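The genes described here are 9 transcription regulators that mark cortical projection neurons: Tbr1, Bcl11b, Fezf2, Foxp2 and Tle4, markers of deep-layer neurons, and Cux1, Cux2, Pou3f2 and Pou3f3, markers of upper-layer neurons. They were chosen by symbol, by a rule that uses no measured value, though with earlier results of these data known. All 9 were found among the 22084 genes counted. RNA of mouse telencephalic tissue at embryonic day E13.5 was sequenced in 4 libraries, all from strain B6D2F2. The libraries KO26F and KO23M carried genotype TCF20-/- (the KO group, n = 2), WT25F was TCF20+/+, and WT22M has a title that says WT and a genotype field that says TCF20+/-. KO was therefore compared with both carriers of an intact copy (WT25F and WT22M), with WT25F alone, and WT22M was set beside WT25F. The labels also differ on the tissue, since the extraction text names the cerebral cortex, and the design text names WT, HET and KO animals in triplicate, of which these 4 libraries are analysed here. The labels do not say how the Tcf20 allele was made, whether a library is 1 embryo or a pool, or whether embryos were littermates, so p-values measure only the spread between these libraries, part of which may be technical.

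Projection neurons of the neocortex are the glutamatergic cells that send axons out of their own area. They are born in order from progenitors of the dorsal telencephalon, deep layers before upper layers, and a small set of factors fixes where their axons go. Fezf2 and its downstream factor Bcl11b (Ctip2) specify subcerebral projection neurons of layer 5, Tbr1 specifies corticothalamic neurons of layer 6, and Foxp2 and the Groucho-type corepressor Tle4 mark the same corticothalamic class. Cux1 and Cux2 are homeodomain factors of the upper layers that shape dendrites and synapses, and Pou3f2 (Brn2) and Pou3f3 (Brn1) are POU-domain factors that act together in making upper-layer neurons. Several are not limited to these neurons at this age: Bcl11b and Foxp2 are also made in the developing striatum, and Cux2 and both POU factors in progenitors.

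The members include a pair of Cux paralogs and a pair of Pou3f paralogs, and the coding stretches where each pair is most alike bear on whether reads could be assigned to the right member. The 90 bases below come from the GENCODE vM21 transcripts (GRCm38). Those of the Pou3f genes reach into the part that codes for the POU homeodomain, and those of the Cux genes lie in a CUT repeat. Each sequence is written 5′ to 3′ on the coding strand, and capitals mark the bases that differ from the partner shown beside it.
Pou3f2 (chr4:22487013-22487102, minus strand): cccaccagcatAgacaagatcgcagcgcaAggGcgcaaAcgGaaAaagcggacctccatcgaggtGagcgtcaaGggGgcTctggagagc
Pou3f3 (chr1:42698316-42698405, plus strand): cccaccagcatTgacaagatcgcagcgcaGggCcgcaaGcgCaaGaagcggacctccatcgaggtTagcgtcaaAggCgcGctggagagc
Cux1 (chr5:136312755-136312844, minus strand): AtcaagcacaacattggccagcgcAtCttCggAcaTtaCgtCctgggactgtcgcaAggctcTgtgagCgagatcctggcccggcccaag
Cux2 (chr5:121873769-121873858, minus strand): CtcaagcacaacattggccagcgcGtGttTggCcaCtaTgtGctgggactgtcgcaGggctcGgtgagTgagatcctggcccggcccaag
Pou3f2 and Pou3f3 shared 80 of the 90 bases (88.9%), with a longest unbroken match of 20 bases. Cux1 and Cux2 shared 79 of 90 (87.8%), with a longest match of 23 bases. Over whole transcripts, 0% (Fezf2) to 1.97% (Cux1) of the 50-base words of a member also occurred in a transcript of another gene, and no member shared such a word with another member. Most of the Cux1 words (1.69% of all its words) lie in Gm16599, an annotated RNA on the opposite strand that overlaps Cux1 exons by 394 bases. Gm16599 had no row among the genes counted. No source used here says whether the counting used strand or how it treated reads with several matches. Within the stretch that both genes share, reads of Cux1 and of its antisense partner therefore cannot be told apart.

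Each library held 17791641 to 18509743 reads assigned to genes, and a member's count lay between 379 (Foxp2 in KO23M) and 7699 (Pou3f3 in KO26F). Levels are given as CPM (counts per 1000000 counts of the library). Tcf20 itself stood at 98.6 and 104 CPM in KO26F and KO23M, 119 CPM in WT25F and 111 CPM in WT22M; the log2 fold change of -0.18 (SE 0.10) had an adjusted p of 1 in edgeR's quasi-likelihood test. Both KO libraries were below both carriers, as 13.4% of all genes tested were. Markers of telencephalon, neurons and glutamatergic neurons had counts in every library, and no marker of the lists used was at 0. The letters F and M in the titles go with Xist, at 519 and 450.3 CPM in KO26F and WT25F against 0.054 and 0.169 CPM in KO23M and WT22M, and with the Y-linked Kdm5d, which had a count of 0 in both F libraries and 33.7 and 34.9 CPM in the M libraries. Other tissue moved between libraries as well: the 8 diencephalic markers summed to 100.4 CPM in WT25F and 39.5 to 43.6 CPM elsewhere, and the 5 choroid plexus markers to 191 CPM in WT22M and 766 to 983 CPM elsewhere. In the comparisons with WT25F, 13 of 80 marker entries passed the threshold (7 in KO and 10 in WT22M, beside 0.345% and 0.714% of all genes): Calb2, Tcf7l2, Gbx2, Olig3, Irx1, Folr1, Clic6, Sostdc1, Kcne2, Ttr, Aldh1a2, Hbb-y and Hba-a1, of Cajal-Retzius cells, diencephalon, choroid plexus, meninges and red blood cells. The calls of WT22M against WT25F set 1 library against 1, and 0 genes passed there with no filter on low counts. The marker lists were chosen with earlier results of these data known, so the shares of all genes are no independent background for them. The spread of the fit of KO against carriers cannot judge the calls of WT22M against WT25F. It counts the difference between WT22M and WT25F as spread within an arm. In KO against WT25F, 0 passed with no filter.

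None of the 9 factors passed the test of a difference between KO and the carriers. With edgeR's quasi-likelihood test on 16252 genes and Benjamini-Hochberg adjustment, 0 of 9 members passed an adjusted p of 0.05 (adjusted p = 1 for each), as 0.0615% of all genes did, and 0 of 9 had an unadjusted p under 0.05, as 2.86% of all genes did. All 9 had passed the filter on low counts. Their fold changes on the log2 scale ran from -0.18 (Foxp2) to 0.19 (Bcl11b), 6 above 0 and 3 below, with a median of 0.02 where that of all genes was 0.002. The median size, sign left aside, was 0.07 for the members and 0.09 for all genes. Bcl11b and Pou3f3 were the members with both KO libraries above both carriers, and Cux2 had both below, so 3 of 9 did not overlap against a background of 27.0% of all genes (13.6% above and 13.4% below). With library sizes scaled by edgeR's TMM method, Cux2 overlapped instead and Foxp2 was lower in both KO libraries; Bcl11b and Pou3f3 kept their place.

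**Figure D1:**
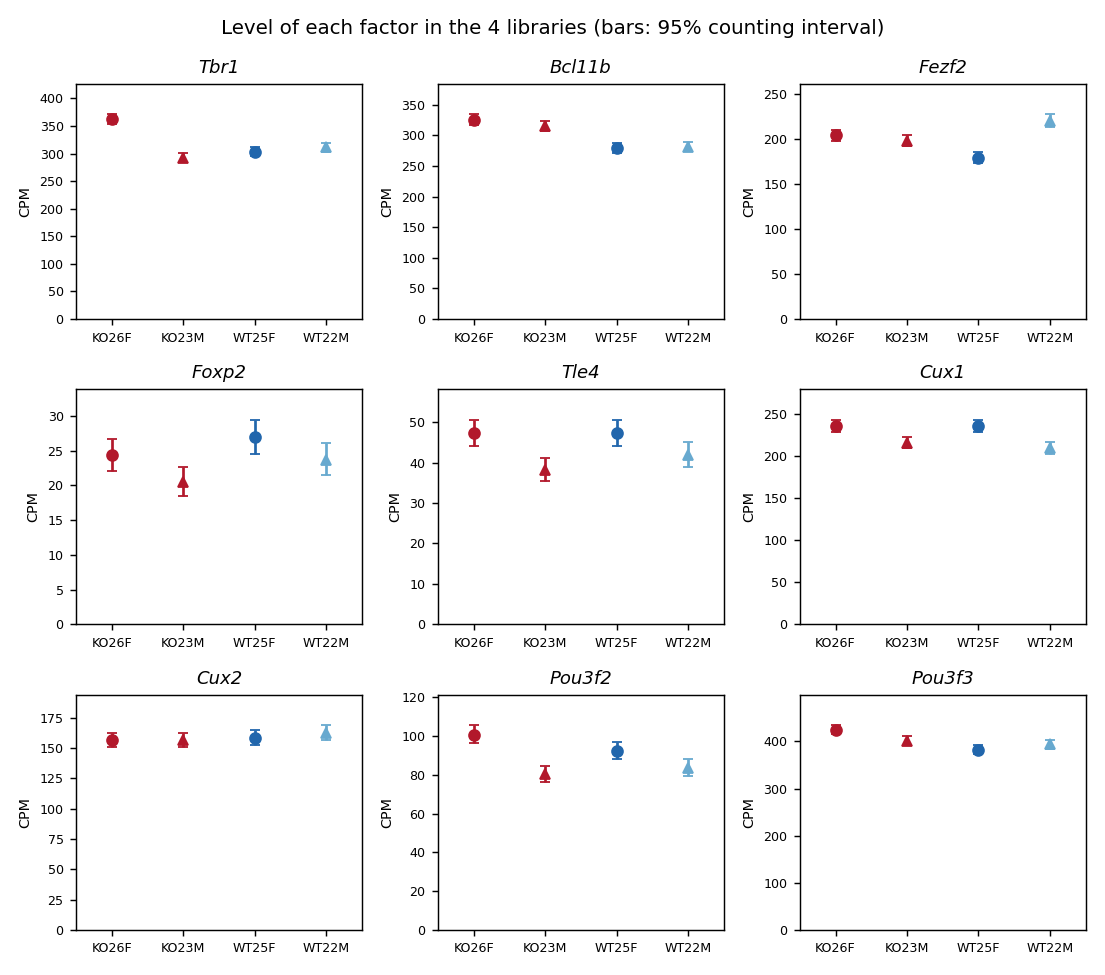
CPM of the 9 factors (one panel each, vertical axis from 0) in KO26F and KO23M (red) and in WT25F and WT22M (blue), with circles for titles ending in F and triangles for M; bars are 95% counting intervals. The red points lie above both blue ones for Bcl11b (316 and 326 against 279.5 and 282 CPM) and Pou3f3, and the order of the libraries differs from factor to factor.

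Among the deep-layer factors, Bcl11b, a zinc-finger factor needed for corticospinal axons, came nearest to a difference. Its gene, ENSMUSG00000048251, lies on the minus strand at chr12:107910403-108003602. Bcl11b measured 326 CPM in KO26F and 316 CPM in KO23M, against 279.5 CPM in WT25F and 282 CPM in WT22M. Both KO libraries were above both carriers, and the spread within each group was small, at 321 ± 7.06 against 281 ± 1.62 CPM (mean ± SD, n = 2 each). The log2 fold change was 0.19 (SE 0.10; 95% interval -0.01 to 0.40), a 1.14-fold higher level with an interval of 0.99 to 1.32. Its unadjusted p of 0.0664 ranked 633 among the 16252 genes and gave an adjusted p of 1 in edgeR. In a fit that takes the title letter (F or M) for a block, 0 of 9 members passed, where 0.757% of all genes did, and Bcl11b, again at 0.19, had an adjusted p of 0.137 in edgeR.

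Bcl11b was also compared with the summed levels of cell type markers in the same library, because its RNA comes from both cortex and striatum. As a percentage of the 12 striatal and ventral markers it was 62.0 and 60.1 in KO26F and KO23M against 54.2 in WT25F and 56.9 in WT22M. As a percentage of the 6 glutamatergic markers it was 19.4 and 19.5 against 17.5 and 15.8. Both KO libraries thus stayed above both carriers on either denominator, and likewise over the telencephalon, neuron and dividing cell lists. The margin was small over the telencephalon and dividing cell lists. Of the 7 telencephalon markers it was 27.85 and 29.11 percent in KO26F and KO23M, against 27.72 in WT25F and 26.53 in WT22M. Of the 7 dividing cell markers it was 45.3 and 45.0 percent in KO26F and KO23M, against 44.2 in WT25F and 44.9 in WT22M. The dividing cell list's own sum was 702 to 720.2 CPM in KO and 628 to 632 CPM in the carriers, and its part in the Bcl11b values was not tested. All these percentages use the same Bcl11b counts, so they are not separate results. The share of all genes that would be apart on such percentages was not computed. Other members were apart over some of these lists too. Foxp2 and Cux2 were lower in both KO libraries over the telencephalon, striatal and dividing cell lists, and Cux1 and Tle4 over the dividing cell list. In bulk tissue, fewer or more cells of a type and less or more RNA per cell cannot be told apart.

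Fezf2, the zinc-finger factor upstream of Bcl11b, is encoded by ENSMUSG00000021743 on the minus strand at chr14:12342094-12348189. It measured 204 CPM in KO26F, 198 CPM in KO23M, 179 CPM in WT25F and 221 CPM in WT22M. The lowest and the highest library were both carriers, and the KO libraries lay between them. KO and carriers averaged 201 ± 4.09 and 199.8 ± 29.4 CPM (SD, n = 2 each), a log2 difference of 0.005 (95% interval -0.22 to 0.23). The ratio of Bcl11b to Fezf2 CPM was 1.60 in both KO libraries (1.598 and 1.595), 1.56 in WT25F and 1.28 in WT22M. It was thus higher in both KO libraries, by a margin over WT25F that is small beside the gap between the carriers. The other ratios computed, Bcl11b to Tbr1, Fezf2 to Tbr1, Cux1 to Cux2 and Pou3f3 to Pou3f2, overlapped between KO and carriers. The share of all gene pairs that would be apart on such a ratio was not computed.

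Tbr1, the T-box factor of layer 6, is encoded by ENSMUSG00000035033 on the plus strand at chr2:61802930-61814114. It reached 362 CPM in KO26F and 293 CPM in KO23M, against 303 CPM in WT25F and 312 CPM in WT22M. KO26F was the highest and KO23M the lowest of the 4 libraries, so the carriers lay inside the range of KO. The groups averaged 327 ± 49.3 and 307 ± 5.82 CPM (SD, n = 2 each), and the log2 fold change was 0.09 (SE 0.11; 95% interval -0.14 to 0.31). The nearest annotated gene, the proteasome subunit gene Psmd14 on the same strand 2554 bases away, varied from 112 to 115 CPM over the libraries.

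Foxp2, a forkhead factor of layer 6 and of the striatum, had the fewest reads. Its gene, ENSMUSG00000029563, spans chr6:14901349-15441977 on the plus strand. Foxp2 measured 24.3 CPM in KO26F, 20.5 CPM in KO23M, 26.9 CPM in WT25F and 23.7 CPM in WT22M. WT25F was highest and KO23M lowest, and the groups overlapped through KO26F and WT22M. As a percentage of the 12 striatal and ventral markers, Foxp2 was 4.624 in KO26F and 3.895 in KO23M, against 5.222 in WT25F and 4.785 in WT22M. Both KO libraries were also lower over the telencephalon and dividing cell lists, and the groups overlapped over the neuron and glutamatergic lists. The sums of the striatal, telencephalon and dividing cell lists were higher in KO, and their part in these values was not tested. The log2 fold change of -0.18 (SE 0.14) had the widest interval of the 9 factors, from -0.47 to 0.11. Tle4, a corepressor with no DNA-binding domain of its own, is encoded by ENSMUSG00000024642 on the minus strand, at chr19:14448150-14598051 in GENCODE vM21. It measured 47.2 CPM in KO26F, 38.1 CPM in KO23M, 47.3 CPM in WT25F and 41.9 CPM in WT22M. Here 1 KO library matched WT25F and the other was the lowest of all, for a log2 fold change of -0.07 (SE 0.12; 95% interval -0.31 to 0.18).

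Among the upper-layer factors, Pou3f3 had the highest CPM of all 9. Its single-exon gene, ENSMUSG00000045515, lies on the plus strand at chr1:42695768-42703176. Pou3f3 measured 425 CPM in KO26F and 401 CPM in KO23M, against 383 CPM in WT25F and 394 CPM in WT22M. Both KO libraries were above both carriers, but KO23M exceeded WT22M by less than the gap between the KO libraries. The groups averaged 413 ± 16.5 and 388 ± 7.73 CPM (SD, n = 2 each), with a log2 fold change of 0.09 (SE 0.10; 95% interval -0.12 to 0.29). As a share of the marker sums, Pou3f3 was higher in both KO libraries over neuron and glutamatergic markers, lower in both over telencephalon and dividing cell markers, and overlapped over the striatal list, so its order depends on the denominator.

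Pou3f2, the paralog of Pou3f3, is likewise a single exon, ENSMUSG00000095139 on the minus strand at chr4:22482780-22488366. It measured 101 CPM in KO26F, 80.4 CPM in KO23M, 92.5 CPM in WT25F and 83.7 CPM in WT22M. As with Tbr1, KO26F was the highest library and KO23M the lowest. The log2 fold change was 0.04 (SE 0.11; 95% interval -0.19 to 0.26). The ratio of Pou3f3 to Pou3f2 CPM was 4.22 in KO26F and 4.14 in WT25F, and 4.99 in KO23M and 4.70 in WT22M, and thus lower in both F libraries than in both M libraries.

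Cux1 and Cux2 are cut-like homeodomain factors encoded on the minus strand of the same chromosome, Cux1 (ENSMUSG00000029705) at chr5:136248135-136567490 and Cux2 (ENSMUSG00000042589) at chr5:121856366-122050102. Cux1 measured 236 CPM in KO26F, 216 CPM in KO23M, 235 CPM in WT25F and 209.9 CPM in WT22M. Each KO library lay close to the carrier with the same title letter, and the log2 fold change was 0.02 (SE 0.10; 95% interval -0.19 to 0.23). Cux2 measured 156.9 CPM in KO26F, 156.5 CPM in KO23M, 158.8 CPM in WT25F and 162.9 CPM in WT22M. Its groups, at 156.7 ± 0.307 and 160.9 ± 2.87 CPM (SD, n = 2 each), did not overlap on this scale, but the log2 fold change was -0.04 (SE 0.10; 95% interval -0.25 to 0.16). Cux2 was the steadiest member. Its highest and lowest libraries differed by 0.06 on the log2 scale, a range narrower than that of all but 1.43% of the genes tested, and its counts were the only ones of the 9 that did not differ between the 4 libraries beyond counting error. The other 8 did, where 56.0% of all genes tested did by the same chi-square criterion. Higher counts make such a criterion easier to pass, and this share is not matched to the members' counts.

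**Figure D2:**
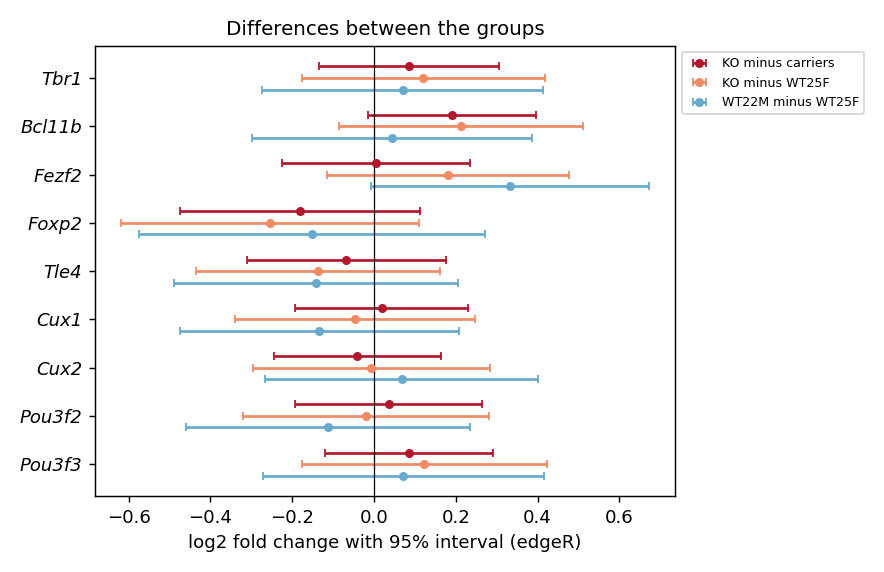
Log2 fold changes (horizontal axis) of the 9 factors from edgeR with 95% intervals, for KO minus both carriers, KO minus WT25F and WT22M minus WT25F. All 27 intervals include 0; Bcl11b in KO minus carriers (0.19) and Fezf2 in WT22M minus WT25F (0.33) come nearest to leaving it out.

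Against WT25F alone, the library whose labels all say wild type, the KO libraries again gave 0 of 9 members past the threshold, where 0.345% of all genes passed, and 0 of 9 at an unadjusted p under 0.05, where 3.43% of genes did (edgeR, spread shared with the KO pair). Bcl11b had a log2 fold change of 0.21 (SE 0.15), Fezf2 0.18 (SE 0.15), Pou3f3 0.12 and Tbr1 0.12. Foxp2 was at -0.25 (SE 0.19), Tle4 at -0.14, Cux1 at -0.05, Pou3f2 at -0.02 and Cux2 at -0.01. This comparison and the one with both carriers share WT25F and both KO libraries, so their values are 2 views of the same measurements.

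WT22M against WT25F compared 1 library with 1, with the spread taken from the KO pair. Here too 0 of 9 members passed, at a background of 0.714% of all genes, and 0 of 9 had an unadjusted p under 0.05, at a background of 4.88%. Fezf2 differed most, at 0.33 (SE 0.17; 95% interval -0.01 to 0.67; unadjusted p = 0.055 and adjusted p = 0.998 in edgeR), which is a 1.26-fold higher level in WT22M. The other 8 ran from -0.15 (Foxp2) to 0.07 (Pou3f3). The 6 glutamatergic markers summed to 1790 CPM in WT22M and 1602 CPM in WT25F, of which 5 had a fold change above 0 and 1 below and 0 passed, and WT25F had the higher diencephalic sum given above. The part of tissue composition in the Fezf2 values was not tested.

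The authors' deposited tables compare each of the other libraries with WT25F by a test on the reads of 2 libraries, so their p-values concern those libraries and not the genotypes. By those tables, 4 of 9 members had an adjusted p under 0.05 in KO26F (background 13.7% of genes listed), 7 of 9 in KO23M (background 22.1%) and 4 of 9 in WT22M (background 22.4%). In the authors' deposited table for KO23M these were Bcl11b, Fezf2 and Pou3f3 with a higher level and Foxp2, Tle4, Cux1 and Pou3f2 with a lower one, the last 4 having log2 fold changes of -0.39, -0.31, -0.12 and -0.20. Of the 4 in WT22M by the authors' deposited table, Fezf2 was higher (log2 fold change 0.30) and Cux1, Pou3f2 and Tle4 were lower. No member was marked significant in any of the authors' deposited tables, in which 412 (KO26F), 603 (KO23M) and 752 (WT22M) genes were marked. Tests on reads call more readily at higher counts, and the background shares above take in genes of all counts. They are therefore not matched to the members.

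Because each genotype arm holds 1 library of each title letter, the KO and carrier libraries were also compared within a letter, as ratios of CPM with 95% counting intervals, which cover counting error only and not the spread between embryos. Between KO26F and WT25F, 5 of 9 members were higher beyond counting error and 0 lower, where 27.3% of all genes differed in either direction. Between KO23M and WT22M, 1 was higher and 3 lower, where 26.4% of all genes differed. Counting intervals narrow at higher counts, and these shares of all genes are not matched to the members' counts. Bcl11b was the one member higher in both, with log2 ratios of 0.22 (0.17 to 0.28) in the F pair and 0.17 (0.11 to 0.22) in the M pair.

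Tbr1 and Fezf2 had ratios of opposite sign in the pairs. For Tbr1 the log2 ratio was 0.26 (0.20 to 0.31) in the F pair and -0.09 (-0.15 to -0.04) in the M pair. For Fezf2 it was 0.19 (0.12 to 0.26) and -0.15 (-0.22 to -0.09). With 1 library in each letter and arm, the difference between the pairs was not tested. Pou3f3 was higher in the F pair at 0.15 (0.10 to 0.20) and not beyond counting error in the M pair at 0.03 (-0.02 to 0.08), and Pou3f2 likewise at 0.12 (0.03 to 0.22) and -0.06. Foxp2 was lower in the M pair at -0.21 (-0.42 to -0.01) and at -0.15 (-0.34 to 0.04) in the F pair. Cux1, Cux2 and Tle4 differed in neither pair beyond counting error.

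**Figure D3:**
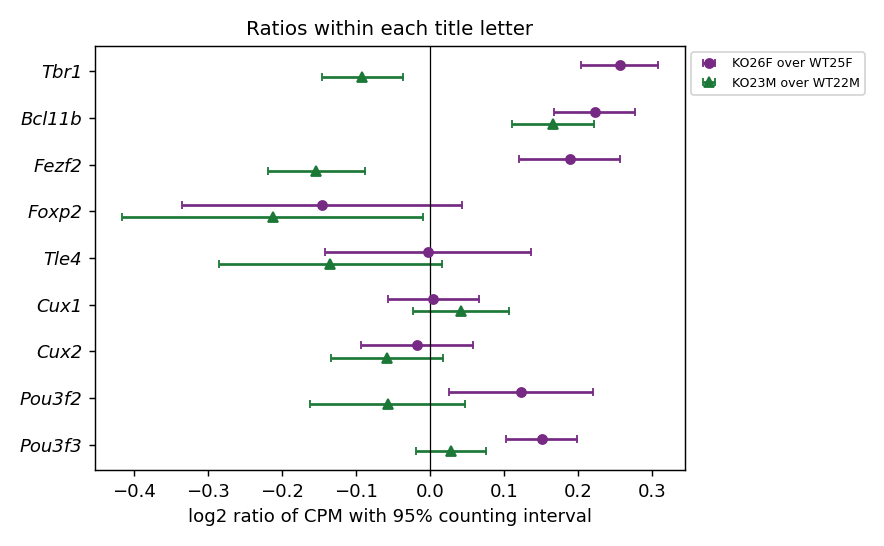
Log2 ratio of CPM (horizontal axis) of KO26F over WT25F (circles) and of KO23M over WT22M (triangles) for the 9 factors, with 95% counting intervals. Bcl11b is to the right of 0 in both pairs, while Tbr1 and Fezf2 lie on opposite sides.

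The KO libraries also differed from each other. KO26F exceeded KO23M beyond counting error for 6 of 9 members, with log2 ratios over all 9 from 0.00 (Cux2) to 0.32 (Pou3f2), and was lower for 0, where 38.0% of all genes differed. Between the carriers, WT22M was higher than WT25F for 1 member (Fezf2) and lower for 3, where 34.2% of all genes differed. Here too the shares of all genes are not matched to the members' counts. Set by letter with no test, both F libraries were above both M libraries for 4 of 9 members and below for 0, where 29.6% of all genes tested were above and 18.6% below (48.2% in either direction). Tle4 averaged 47.2 CPM in the F libraries and 40.0 CPM in the M libraries, Pou3f2 96.6 and 82.1 CPM, Cux1 236 and 213 CPM, and Foxp2 25.6 and 22.1 CPM. On TMM-scaled library sizes, Foxp2 overlapped, and Fezf2 and Cux2 were lower in both F libraries. Each letter holds 1 library of each arm, and whether these differences go with the letter or with single embryos was not tested.

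Summed by layer, the 5 deep-layer factors came to 964 CPM in KO26F, 866 CPM in KO23M, 836 CPM in WT25F and 879.5 CPM in WT22M. The 4 upper-layer factors came to 919 CPM in KO26F, 854 CPM in KO23M, 869 CPM in WT25F and 850.0 CPM in WT22M. KO26F was highest in both sums, and the groups overlapped in both. Several of these factors are also made in other cells at this age, so the sums do not measure a balance of deep-layer and upper-layer neurons. The median log2 fold change of KO minus carriers was 0.005 over the deep-layer and 0.03 over the upper-layer factors, beside 0.002 over all genes.

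Per kilobase of annotated exon, a scale on which genes can be compared, the deep-layer factor Fezf2 stood highest at 65.8 ± 5.62 CPM per kb (mean ± SD over the 4 libraries), followed by Tbr1 at 57.9 ± 5.63 and Pou3f3 at 54.1 ± 2.41 CPM per kb. These neighbours overlapped in their library values. Bcl11b followed at 37.1 ± 2.93 CPM per kb, below every library of the first 3 genes. Pou3f2 (16.0 ± 1.64 CPM per kb) and Cux2 (15.8 ± 0.291 CPM per kb) overlapped each other, and Cux1 (11.2 ± 0.669), Tle4 (7.65 ± 0.777) and Foxp2 (1.46 ± 0.162 CPM per kb) each lay below the one before. The order rests on the length used. With the longest coding transcript in place of all exons, Fezf2 and Tbr1 came to 82.5 and 79.8 CPM per kb, Cux2 to 18.1, Cux1 to 17.4 and Foxp2 to 3.53 CPM per kb, while Pou3f2 with its single exon stayed at 16.0 CPM per kb and moved from 5th to 7th.

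**Figure D4:**
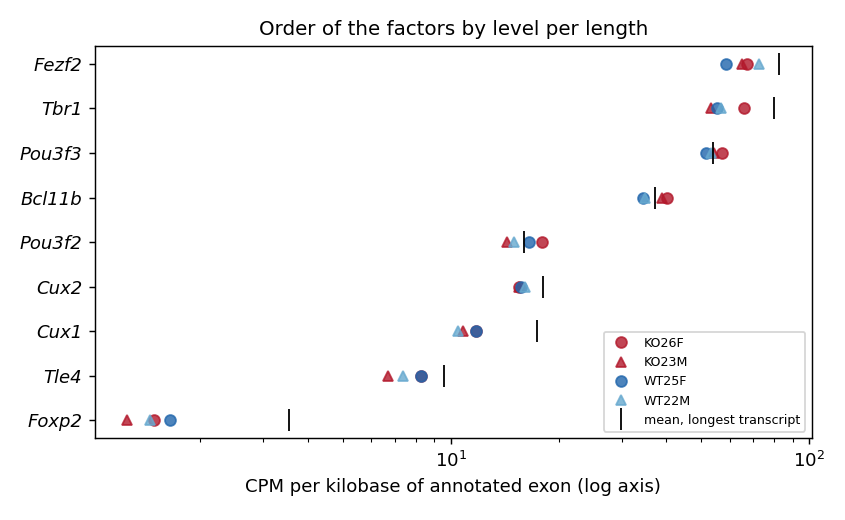
CPM per kilobase of annotated exon (log axis) for the 9 factors in the 4 libraries (colours and symbols as labelled), with a black tick at the mean when the longest coding transcript sets the length. Fezf2, Tbr1 and Pou3f3 overlap at the top, and the tick for Foxp2 (3.53) stands clear of its points (mean 1.46).

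The libraries differed most for Foxp2 (a range of 0.40 on the log2 scale) and Pou3f2 (0.32). The members' median range was 0.30 and that of all genes tested was 0.31. For these 2 members, the genes whose centred log2 CPM over the 4 libraries lay closest were sought among genes of like level. Over 4796 genes, Rlf was closest to Foxp2 at a distance of 0.011, then Mtus2 (0.025) and Edem3 (0.032). Over 4068 genes, Zfp91 was closest to Pou3f2 at 0.008, then Herc1 (0.015) and Aff4 (0.025). With 4 points per gene, such nearness among so many genes is a description only.

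Other factors of projection neurons gave a like picture. Of 27 further factors, all tested, 0 passed the threshold in KO against carriers (background 0.0615%), 12 had a fold change above 0 and 15 below, and the median was -0.01. The lowest unadjusted p belonged to Zfpm2, a zinc-finger cofactor of corticothalamic neurons, at -0.32, followed by the LIM-domain cofactor Ldb2 at -0.22, the orphan nuclear receptor Nr2f1 at 0.15 and the layer 4 receptor Rorb at -0.21. In 14 of these 27 genes both F libraries were above both M libraries, and in 1 below, beside 29.6% and 18.6% of all genes.

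Of 20 paralogs of the members, 19 were in the files and 17 were tested. None passed (0 of 17 by edgeR, beside 0.0615% of all genes; 1 at an unadjusted p under 0.05, beside 2.86%), 12 were above 0 and 5 below, and the median was 0.07. Onecut3, of the cut-homeodomain family of Cux1 and Cux2, had the lowest unadjusted p, with a log2 fold change of -0.92 at 1.03 to 3.07 CPM. A paralog of Tbr1, Eomes (Tbr2), a factor of intermediate progenitors, was at 0.19, and a paralog of Pou3f2, Pou3f1, at 0.12. Tle6, 1 of several paralogs of Tle4, was at 0.54 (SE 0.34), with a low level of 1.5 to 2.9 CPM.

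The 12 factors that act earlier in the dorsal telencephalon, such as Pax6 and Emx2, were all tested and 0 passed (edgeR; 0 at an unadjusted p under 0.05). Their fold changes were above 0 for 11 and below for 1, with a median of 0.12 beside 0.002 for all genes, and both KO libraries were above both carriers for 6 of them, where 13.6% of all genes were. Among those with the lowest unadjusted p were Eomes, the proneural factor Neurog2 at 0.17 and the progenitor factor Dmrta2 at 0.16. The groups' marker sums differed in the same direction for telencephalon (1086 to 1171 CPM in KO and 1009 to 1062 CPM in the carriers, 5 of 7 markers above 0), for dividing cells (7 of 7 markers above 0) and for striatal and ventral cells (526 against 496 to 516 CPM, 8 of 12 markers above 0), and in the opposite direction for neurons (6304 to 6427 against 6473 to 6716 CPM, 8 of 10 markers below 0), meninges (301 to 317 against 376 to 386 CPM, 6 of 6 markers below 0), microglia (60.0 to 64.1 against 67.2 to 81.8 CPM, 4 of 5 below 0) and endothelium (186 to 194 against 202 to 210.0 CPM, 4 of 4 below 0). The sums overlapped for glutamatergic, Cajal-Retzius, diencephalic, choroid plexus and erythroid markers. Singly, both KO libraries were above both carriers for 3 of 7 telencephalon, 4 of 7 dividing cell and 5 of 12 striatal markers (2 of 12 below). They were below for 2 of 10 neuron, 5 of 6 meninges, 4 of 5 microglia and 1 of 4 endothelium markers. Of all genes, 13.6% were above and 13.4% below. The part of the marker sums in the members' values was not tested.

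**Figure D5:**
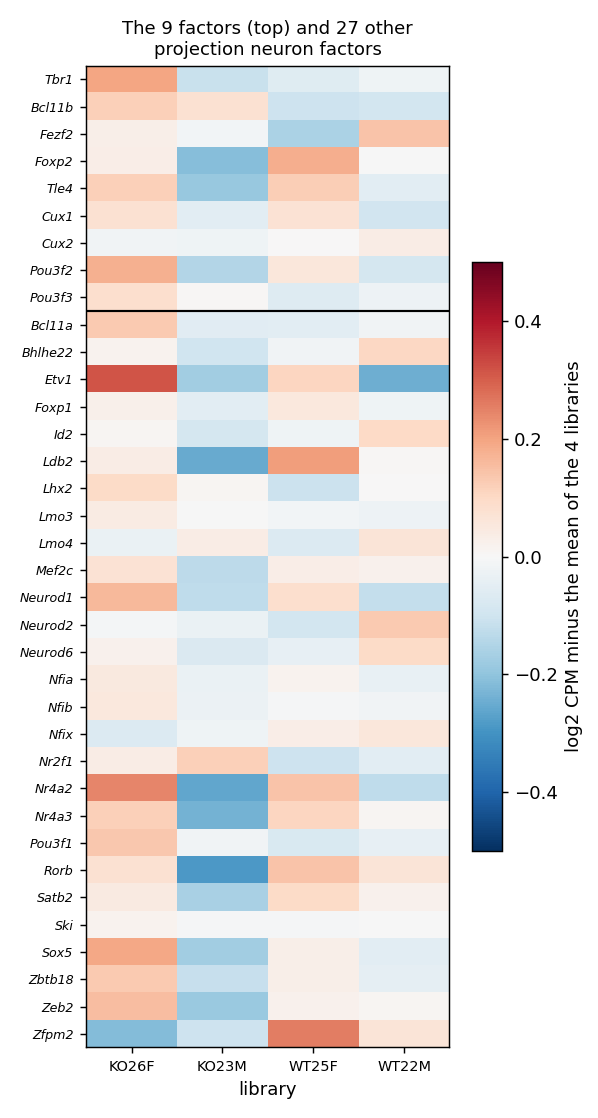
Log2 CPM minus the mean of the 4 libraries (colour) for the 9 factors above the line and 27 other projection neuron factors below it, one column per library. Bcl11b is above its mean in both KO columns, Fezf2 is lowest in WT25F and highest in WT22M, and Cux2 is nearly flat.

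The neighbours of the members were read as a check on reads from adjoining or antisense transcription. Of 20 annotated genes within 20 kb of a member, 11 had a row in the files and 8 were tested, and 0 passed in KO against carriers (background 0.0615%). Beside Pou3f3, the lincRNA Pantr1 on the opposite strand begins 926 bases upstream. Pantr1 measured 84.1 CPM in KO26F, 93.5 CPM in KO23M, 86.0 CPM in WT25F and 90.04 CPM in WT22M, with a log2 fold change of 0.01 (SE 0.11). Its lowest library, KO26F, is the highest for Pou3f3. On the other side of Pou3f3, Pantr2 measured 18.8 to 22.2 CPM with a log2 fold change of 0.16 (SE 0.15), and AC122898.1, whose span covers Pou3f3 on the same strand without sharing exon bases, measured 3.23 to 3.99 CPM. Near Pou3f2, the lincRNA Gm30731 measured 1.90 to 3.04 CPM. Near the Cux genes, Sh2b2 and Gm38082 (beside Cux1) and Sh2b3, Pheta1, 4933437G19Rik and Gm3970 (beside Cux2) were counted; Pheta1 measured 82.3 to 105 CPM and the last 2 stayed under 1 CPM.

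Promoter sequence is given for the Pou3f pair, since both genes have a lincRNA upstream that is read in the opposite direction. The 250 bases before the RefSeq start site (GRCm38.p6) are written 5′ to 3′ on the coding strand, with capitals for CCAAT, searched on both strands.
Pou3f3 (chr1:42695518-42695767, plus strand): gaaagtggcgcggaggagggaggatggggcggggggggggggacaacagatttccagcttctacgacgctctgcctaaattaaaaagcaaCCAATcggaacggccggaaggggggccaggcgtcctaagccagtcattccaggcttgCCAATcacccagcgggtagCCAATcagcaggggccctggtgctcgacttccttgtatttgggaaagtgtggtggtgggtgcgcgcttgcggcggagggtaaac
Pou3f2 (chr4:22488367-22488616, minus strand): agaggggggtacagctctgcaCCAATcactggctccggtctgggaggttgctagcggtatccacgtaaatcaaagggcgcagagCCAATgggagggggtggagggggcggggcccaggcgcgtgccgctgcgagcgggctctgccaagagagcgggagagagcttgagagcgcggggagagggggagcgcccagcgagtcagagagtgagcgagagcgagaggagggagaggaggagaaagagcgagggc
Pou3f3 had 3 CCAAT matches, beginning 160, 103 and 84 bases before the start, and Pou3f2 had 2, beginning 229 and 166 bases before it. RefSeq promoter windows of 250 bases before to 50 bases after a start were matched for 8 of 9 members (10 entries; Foxp2 had none), and 37.4% of all 32851 such windows held CCAAT on either strand. Tle4 and Tbr1 held it as well, and the other 4 members matched did not. Of the other motifs searched on both strands, CAGATG (17.2% of all windows) was found in 1 of the Cux2 windows, and ATGCAAAT (1.74%) and AGGTGTGA (1.28%) in none of the 8 members' windows. By base composition the windows ran from 43.0% GC (Bcl11b) to 80.3% GC (Cux2), around a median of 52.7% over all windows. No binding or methylation was measured, so these are descriptions of the letters alone.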

How the data were processed

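Per the submitters' processing notes, the tools named were Bowtie2 2.2.3, TopHat2 2.0.12 and HTSeq 0.6.0, with mm9 as the build; the positions in the deposited tables match GRCm38, and 20221 of 22084 genes have the same position in GENCODE vM21. The authors deposited whole-number counts per gene for each library, and per the file headers also a ratio (fold change), its log2 value and p-values with adjusted p-values for each library against WT25F. The authors also deposited CPM columns; the counts were the input here, and CPM was computed from them with each library's total. Pair tables were joined by gene identifier, and unused columns of per-sample values numbered 0.

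Genes were filtered with edgeR's filterByExpr (16252 kept), scaled by TMM (factors 0.9859 to 1.0164) and tested with edgeR 4.0.16 (glmQLFit, glmQLFTest; R 4.3.3) and Benjamini-Hochberg adjustment over all genes kept, at 0.05. KO against carriers was fitted with 2 arms, which leaves 2 residual degrees of freedom; the comparisons with WT25F used 3 groups, with 1. Levels carry exact 95% Poisson intervals and ratios 95% intervals for counting error only, and reads without molecular identifiers are not independent molecules. Alternatives were RLE size factors, DESeq2 1.42.0, other filters, the title letter as a block, another spread, and leaving out each library. The second length scale and the levels by title letter were added after seeing the data. The fitting script was tested on simulated counts.

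The members were named by symbol. The members and all lists were chosen with earlier results of these data known. From other lists, genes past the threshold in the comparisons or, per list, up to 4 with the lowest unadjusted p were named; marker lists are otherwise given as sums. The value of 1 gene that this rule names is not reported here. Neighbours were all genes within 20 kb with a row in the files. The replicate numbers are in accession order and pair nothing.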

Additional observations from a re-analysis of the deposited data

Results flagged for a closer look

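Tbr1 and Fezf2 were higher in the KO library than in the carrier in the pair of libraries with the title letter F and lower in the pair with the letter M. The log2 ratios of Tbr1, 0.26 and -0.09, differ by 0.35. Those of Fezf2, 0.19 and -0.15, differ by 0.34. Each letter has 1 library per arm, so the difference was not tested.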

How the results depend on the processing

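The number of members past the threshold was 0 of 9 in each comparison under every setting run, and the lowest adjusted p of a member was 0.137 (edgeR), for Bcl11b with the replicate block. In the comparisons with WT25F, some settings, such as no filter on low counts, passed no gene at all. Their 0 of 9 was therefore fixed and says nothing about the members. Over the settings, the log2 fold change of Bcl11b in KO against carriers ran from 0.17 to 0.21. The members' signs stayed as given except when a library was left out. Their sizes depended on single libraries too: in KO against carriers Foxp2 ran from -0.29 without KO26F to -0.08 without KO23M (-0.11 without WT25F), Pou3f3 came to 0.05 without WT25F, Tbr1 to 0.21 without KO23M, Tle4 to -0.21 without KO26F, Pou3f2 to 0.17 without KO23M and Fezf2 to 0.18 without WT22M. In KO against carriers, Tbr1 became -0.056, Cux1 -0.027 and Pou3f2 -0.115 without KO26F, Tle4 became 0.057 without KO23M, Fezf2 -0.16 and Tle4 0.001 without WT25F, and Cux1 -0.046 and Pou3f2 -0.019 without WT22M. In KO against WT25F, Tbr1 became -0.02 and Cux2 0.01 without KO26F, and Pou3f2 0.11 without KO23M.

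Counts over all genes moved more. In KO against carriers, 10 genes passed, 123 with the title letter as a replicate block, and 48 to 100 when 1 library was left out (leaving 48 without KO26F, 59 without WT22M, 65 without KO23M and 100 without WT25F). In KO against WT25F, 56 passed, 0 unfiltered (353 unadjusted, that is before the edgeR p-values were adjusted), 27 with DESeq2 and 6 with the spread of the 2-arm fit. In WT22M against WT25F, 116 passed, 0 with no filter (520 unadjusted), 33 with DESeq2 and 0 with the spread of the 2-arm fit (347 unadjusted). That spread counts the difference between WT22M and WT25F as spread within the carriers, so it sets the difference against itself. The fits without KO26F or without KO23M took their spread in the same way. These settings therefore cannot judge the calls of this comparison. The cause of the other shifts was not tested. The alternatives that leave an arm with 1 library assume that it varies like the others. The title letter is not a replicate number, so no pairing of embryos underlies the block. With 2 libraries per arm, the members' 95% intervals in KO against carriers span 0.41 to 0.59 on the log2 scale, which limits the differences that could be seen.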
